A study of Drosophila melanogaster with 51 samples.

Results

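The Dpr, DIP and Beat genes encode neural adhesion proteins, and their open chromatin was described in cells that are not neurons. The genes were chosen by symbol alone, as protein-coding genes named dpr with a number or with a symbol that begins with DIP- or beat-. This gave 46 of the 13968 protein-coding genes annotated on 7 chromosome arms, of which 21 are Dpr genes, 11 are DIP genes and 14 are Beat genes. The data are ATAC-seq regions, stretches of DNA that a transposase could reach and cut, from the basal state of Kc167 cells, an embryonic Drosophila melanogaster line with features of hemocytes (blood cells). The basal cells carried no expression construct and were given no copper, and the authors pooled 3 such libraries into 1 list of 16118 open regions. The other 48 libraries of the series came from 12 stable lines with copper-inducible Hox, Hth or Gcm constructs and were not analysed here.

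Dpr and DIP proteins belong to the immunoglobulin superfamily and sit on the surface of neurons. Each DIP binds a particular set of Dpr partners across the contact between cells, and these pairs help axons and dendrites find the right synaptic partner. Beat proteins are immunoglobulin proteins of motor and other neurons that bind the Side proteins, and the founding pair, Beat-Ia and Side, guides motor axons as they leave their bundle towards muscle.

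A gene had an open transcription start site (TSS) when at least 1 region overlapped the 250 bp on either side of any of its annotated TSSs. A closed TSS means only that no region was called there. The list holds positions without read numbers, so the depth behind a region is unknown, no value has a replicate error, and the counts below are descriptions of 1 pooled list without a test. An open TSS says nothing of RNA level, which was not measured. The cells carried open TSSs at 11 of 14 hemocyte marker genes, 4 of 16 neuronal markers and 7 of 10 glial markers, beside 47.8% of all protein-coding genes. The median lengths of the hemocyte and neuronal lists, 10.8 and 27.2 kb, fall in the class of 10 to 50 kb, where 68.2% of all protein-coding genes were open, and that of the glial list, 6.6 kb, in the class below 10 kb, where 44.4% were. Each list mixes length classes, so these shares are only a rough background. All 3 closed hemocyte markers (NimC1, He and Sr-CI) were below 10 kb, as were the open eater, crq, Col4a1 and gcm2.

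Most Dpr, DIP and Beat genes had neither an open start site nor any open region inside the gene. An open TSS was found in 10 of the 46 genes, or 21.7%, compared with 47.8% of all protein-coding genes. These 10 were dpr1, dpr6, dpr8, dpr14, dpr16, dpr18, DIP-epsilon, beat-Ia, beat-IIIc and beat-Vb. By family, they were 6 of 21 Dpr genes (28.6%), 1 of 11 DIP genes (9.09%) and 3 of 14 Beat genes (21.4%). At least 1 region overlapped the gene body of 13 of the 46 genes (28.3%), against 48.9% of all protein-coding genes. By length this was 11.1% of members against 43.9% of all genes below 10 kb, and 20% against 77.5% between 10 and 50 kb. Above 50 kb it was 58.3% against 86.3%. In dpr14, dpr16, beat-Ia and beat-Vb the only region lay just upstream of the gene. Of the 36 genes with a closed TSS, 29 had no region anywhere in the gene, 5 had regions in introns and 2 had regions only near their 3′ end. Closed members without a region were 80.6%, fewer than the 92.1% of all closed protein-coding genes, and 13.9% against 4.28% had an intronic region. Within length classes, closed members without a region were 100% against 95% below 10 kb and 81% against 65.3% between 10 and 50 kb. Above 50 kb they were 62.5% against 42%.

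**Figure D1:**
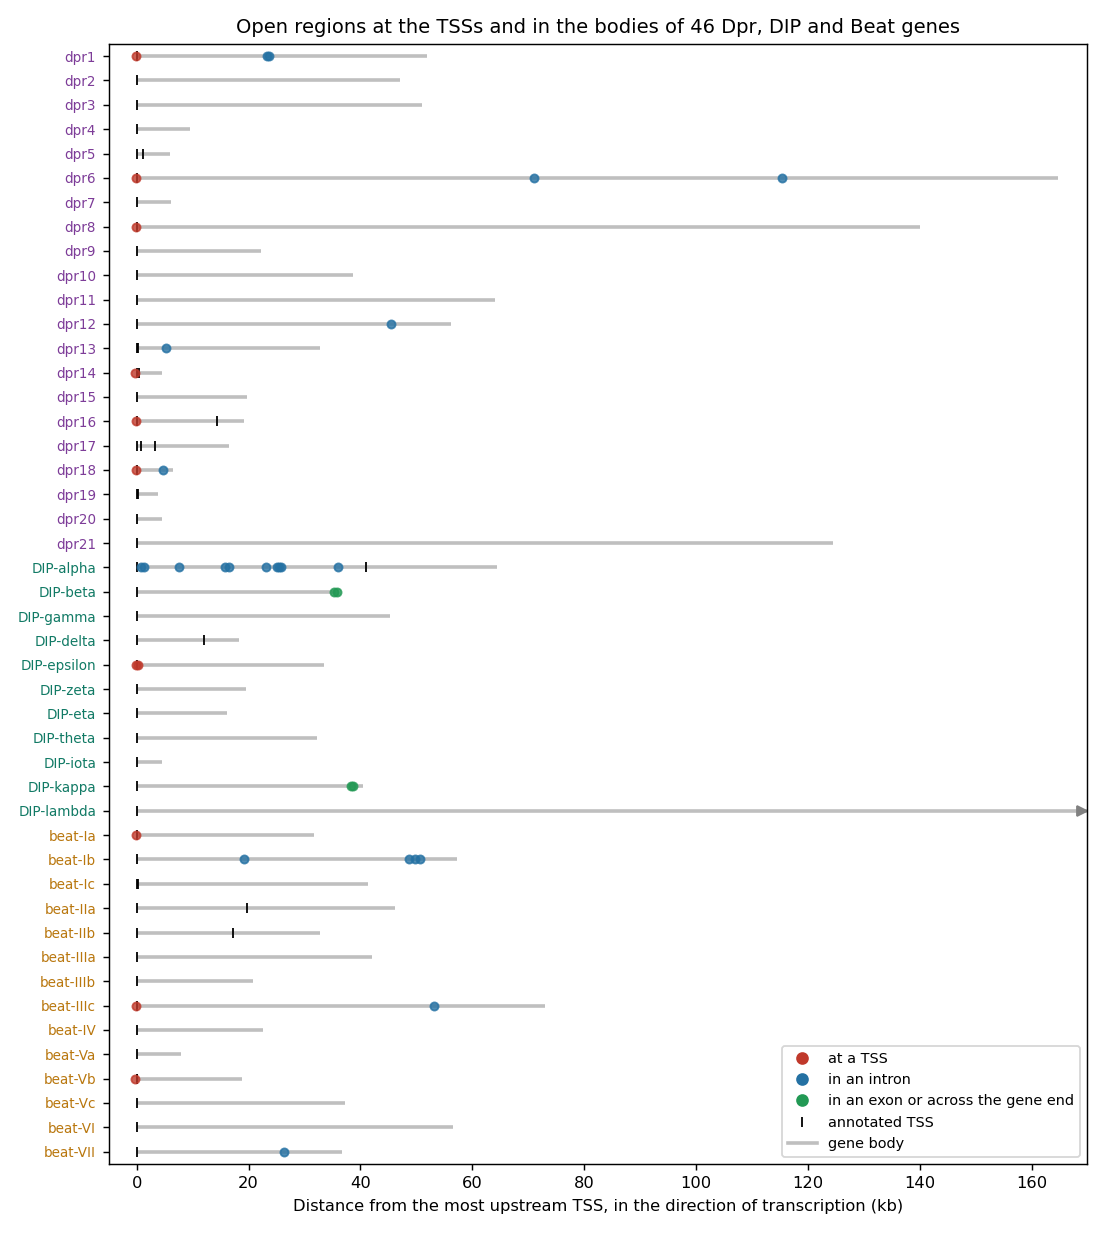
Position of each open region (points) along each of the 46 genes, as the distance in kb from the most upstream TSS in the direction of transcription. Grey lines are gene bodies, black ticks annotated TSSs, and the arrow marks that DIP-lambda runs on to 379 kb. Of the 36 closed genes, 29 hold no point, and DIP-alpha holds 10.

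These genes are long, with a median length of 33.2 kb compared with 2.16 kb for all protein-coding genes, so genes of like length were set side by side. Below 10 kb, 2 of 9 members had an open TSS (background 44.4%). Between 10 and 50 kb, 4 of 25 did (background 68.2%). Above 50 kb, 4 of 12 did (background 68.1%). Other long genes often have several TSSs, and any of them could count, whereas 34 of the 46 members have a single annotated TSS. Among genes with 1 TSS, the 10 to 50 kb class had 2 of 17 members open, against 58.6% of all such genes. In the class above 50 kb it was 4 of 11 members, or 36.4%, against 46.6%. The distance to the background was wide in the middle class and small in the longest one. Counted per start site, 11 of the members' 59 TSSs were open (18.6%), compared with 46.1% of 19630 TSSs of all protein-coding genes.

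**Figure D2:**
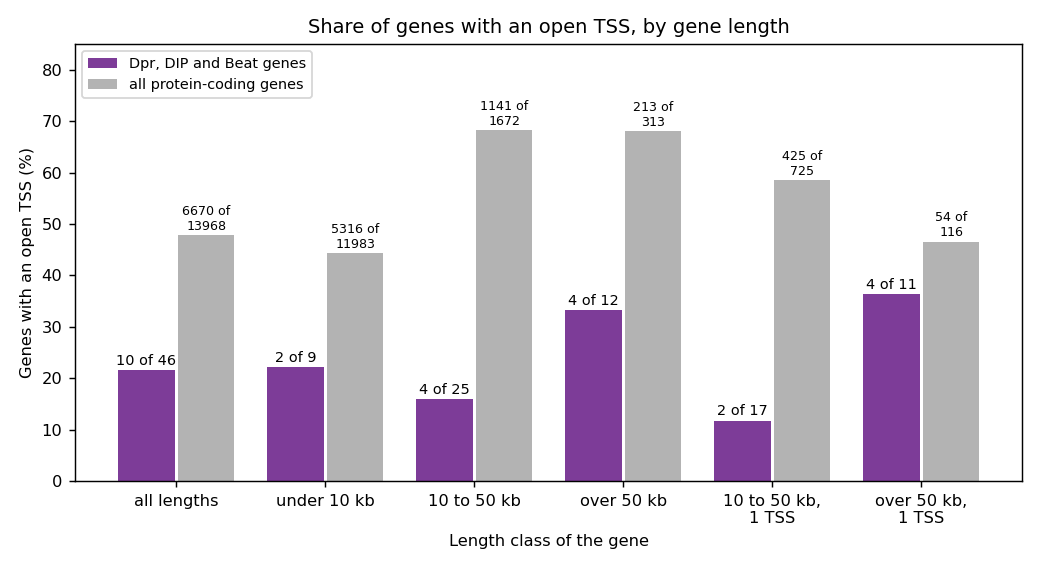
Share of genes with an open TSS (percent) in each length class, for the Dpr, DIP and Beat genes (purple) and all protein-coding genes (grey), with the number of genes above each bar. The members' bar is the lower one in all 6 pairs, by the least (36.4% against 46.6%) among genes above 50 kb with 1 TSS.

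The open regions at start sites were wider at the median than those of other genes and stood on their own. The 10 genes held 11 TSS regions of 134 to 463 bp, with a median of 279 bp, compared with a median of 212 bp for the TSS regions of other protein-coding genes. At least 200 bp wide were 9 of the 11 (81.8%), compared with 56% of those of other genes. None of the 11 reached within 250 bp of a TSS of another gene, whereas 2235 of the 8545 TSS regions of other genes (26.2%) were at the TSSs of more than 1 gene. The closest was that of dpr14, whose upstream edge ended 259 bp from the TSS of spidey. The midpoint lay upstream of the TSS in 10 of 11 regions (90.9%), compared with 65.5% of the 10641 pairs of another gene and a region at its TSS. The TSS itself was inside the region in 6 of 11 cases (54.5%), compared with 65.7% of these pairs.

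Among the Dpr genes, dpr1 founded the family and was named for a defective proboscis extension response to salt. Its TSS lay inside a region of 336 bp (2R 20698260 to 20698595) at the start of a gene of 52.0 kb, and 2 further regions of 585 and 140 bp lay in 1 intron, 22937 and 23618 bp downstream. The gene dpr6, whose protein binds DIP-alpha, had a region of 243 bp over its TSS and intronic regions of 200 and 377 bp that began 70901 and 115253 bp downstream. In dpr8, a gene of 140.1 kb on X, the region over the TSS (14321912 to 14322304) was 393 bp wide and was the only one in the gene. The short gene dpr18 had a region of 279 bp over its TSS and 1 of 248 bp in an intron, 4667 bp downstream. In dpr14 the region was 280 bp wide, with its midpoint 246 bp before the nearest TSS. In dpr16 it was 161 bp wide (3R 5150724 to 5150884) and ended 24 bp before the more upstream of its 2 TSSs. Of the 5 members on X, 3 were open (dpr8, dpr14 and dpr18). Open members on the other arms numbered 3 of 15 on 2L, 1 of 5 on 2R, 1 of 4 on 3L and 2 of 16 on 3R, and dpr7, the only member on chromosome 4, was closed. The share of all protein-coding genes open on each arm was not computed, so these counts give no comparison of the arms.

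DIP-epsilon was the only DIP gene with an open TSS. A region of 463 bp, the widest at any member's TSS, covered the start site, and another of 134 bp lay 236 bp inside the gene. The rest of its 33.6 kb held no region.

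Of the Beat genes, beat-Ia, the founding member, is named for the beaten path phenotype of its motor axons. Its region of 230 bp ended 68 bp before the TSS, and no other region lay in its 31.7 kb. In beat-IIIc, a gene of 73.1 kb, a region of 407 bp (2L 17260606 to 17261012) covered the TSS and another of 279 bp lay in an intron, 53052 bp downstream. In beat-Vb the region was 231 bp wide (3R 12915676 to 12915906) and ended 150 bp before the upstream TSS, the largest such gap among the open genes.

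The sequence upstream of 5 of these start sites is printed here because these regions hold a match to 1 of the 10 short motifs searched outside annotated exons. Sequences are from the Release 6 assembly (dm6), on the strand of the gene, and capitals mark motif matches on either strand.
dpr6 upstream of the TSS, chr3L:9974490-9974650, plus strand: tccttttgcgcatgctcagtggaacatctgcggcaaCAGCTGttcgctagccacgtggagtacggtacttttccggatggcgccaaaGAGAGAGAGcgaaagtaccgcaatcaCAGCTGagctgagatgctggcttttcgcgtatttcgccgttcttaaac
dpr14 upstream of the TSS, chrX:7908393-7908672, minus strand: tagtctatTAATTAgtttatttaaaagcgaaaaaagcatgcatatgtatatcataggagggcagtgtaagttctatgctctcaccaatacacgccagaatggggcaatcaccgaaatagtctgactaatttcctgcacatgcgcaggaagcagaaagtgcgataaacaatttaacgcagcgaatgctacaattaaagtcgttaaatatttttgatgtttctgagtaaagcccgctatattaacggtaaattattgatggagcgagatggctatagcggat
dpr18 upstream of the TSS, chrX:16063488-16063737, plus strand: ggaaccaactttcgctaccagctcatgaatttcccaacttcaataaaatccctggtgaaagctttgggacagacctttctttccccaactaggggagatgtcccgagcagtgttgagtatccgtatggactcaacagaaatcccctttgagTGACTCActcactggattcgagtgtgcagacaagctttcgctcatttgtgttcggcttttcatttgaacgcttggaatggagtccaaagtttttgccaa
DIP-epsilon upstream of the TSS, chr2L:6411327-6411594, minus strand: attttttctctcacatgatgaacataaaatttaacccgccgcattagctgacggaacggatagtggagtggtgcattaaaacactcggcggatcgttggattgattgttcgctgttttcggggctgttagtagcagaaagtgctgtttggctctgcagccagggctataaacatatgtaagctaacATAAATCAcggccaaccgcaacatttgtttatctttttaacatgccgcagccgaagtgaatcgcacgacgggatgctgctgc
beat-Ia upstream of the TSS, chr2L:16049668-16049897, plus strand: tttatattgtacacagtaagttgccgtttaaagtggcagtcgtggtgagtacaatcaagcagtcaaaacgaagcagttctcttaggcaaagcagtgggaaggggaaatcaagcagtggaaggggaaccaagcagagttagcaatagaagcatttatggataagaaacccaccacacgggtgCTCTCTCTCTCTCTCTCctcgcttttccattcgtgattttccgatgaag

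The capitals show 2 E-boxes (CAGCTG) and a GAGA stretch (overlapping matches to GAGAGAG) at dpr6, a homeodomain core (TAATTA) at dpr14, an AP-1 site (TGACTCA) at dpr18, an Exd-Hox site (TGATTNAT) at DIP-epsilon and the GAGA letters on the other strand at beat-Ia. A match describes the letters and not a bound site. The GAGA letters were in 2 of the 11 TSS regions (18.2%), compared with 12.8% of TSS regions of other genes. The DRE (TATCGATA), a promoter element of many housekeeping genes, was in none of the 11 regions, compared with 9.8% of TSS regions of other genes. The M1BP motif (GGTCACAC), another such element, was in 1 of 11, that of beat-IIIc, against 10.2%. The Exd-Hox letters were in 2 of 11, at dpr1 and DIP-epsilon, against 4.31%, and the AP-1 and homeodomain letters in 1 each, against 2.87% and 9.49%. The E-box letters were in 1 region, at dpr6, against 21.1%. The remaining motifs were in no TSS region of a member. Among TSS regions of other genes, the letters of the Runx factors (TGTGGTT) were in 3.91%, the STAT letters (TTCNNNGAA) in 6.66% and a site for factors of the GATA class, written TGATAAG, in 6.07%. Members' TSS regions were wider at the median, which leaves more room for a match. In 200 bp around the midpoint, the Exd-Hox letters were in 1 of 11, against 3.09%. The M1BP and homeodomain letters were in none there, against 9.15% and 7.68%. The members' GAGA, AP-1 and E-box counts were unchanged.

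Core promoter letters at the start site, chosen after the regions had been examined, were compared between open and closed members. The initiator letters TCAGT were sought within the bases from -6 to 8, where the TSS is 1. They were at a TSS of 2 of the 10 open members (dpr1 and dpr6) and 16 of the 36 closed ones. Among all protein-coding genes, 14.5% of open and 13.6% of closed ones carried these letters. Together 18 of 46 members (39.1%) carried the letters, compared with 14% of all protein-coding genes. By length class the share was 11.1% of members below 10 kb against 10.7% of all genes, 52% against 33.1% between 10 and 50 kb, and 33.3% against 40.3% above 50 kb. The TATA box letters TATAAA, from -44 to -15, were at no member's TSS, compared with 4.75% of open and 15.7% of closed protein-coding genes. The letters CGTG from 25 to 36, part of a downstream element, were at 0 of 10 open and 5 of 36 closed members, against 7.53% and 4.37% of open and closed genes. The initiator was most frequent among the DIP genes, at 6 of 11, all of them with a closed TSS. These 6 are printed beside the open dpr6, 30 bases each with the initiator in capitals (for DIP-alpha at its downstream TSS).
dpr6, chr3L:9974636-9974665, plus strand: tcgccgttcttaaacTCAGTtcgtgaggcg
DIP-alpha, chrX:3530651-3530680, minus strand: tccggcagctgcatctTCAGTtgatcaacg
DIP-beta, chrX:21457724-21457753, minus strand: cgcttggtgcgacaggtTCAGTgctcgggc
DIP-gamma, chr3R:28970358-28970387, minus strand: tcctttttcatgctggcTCAGTtgcgaatt
DIP-delta, chr3L:5424094-5424123, plus strand: gcacgatttgaatTCAGTttgactcgaacc
DIP-zeta, chr2L:9071150-9071179, minus strand: ggtttcgtcggcaaaTCAGTttcgctacgg
DIP-eta, chr2L:5617932-5617961, minus strand: tcggaaatgctggctTCAGTacatcgacgg

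The A of the initiator lay at positions 1 to 5 from the annotated TSS in these 7 genes, a range that the searched window limits.

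The closed genes with open introns were DIP-alpha, beat-Ib, dpr12, dpr13 and beat-VII, and 1 gene held most of their regions. Of 17 intronic regions, DIP-alpha held 10, beat-Ib 4 and the other 3 genes 1 each. Without DIP-alpha, 7 regions in 4 genes remained. Between 10 and 50 kb, 2 of 21 closed members had an intronic region, against 28.2% of all closed genes of that length. Above 50 kb it was 3 of 8, against 54%. Per 100 kb of intron, closed members of 10 to 50 kb held 0.342 regions and other closed genes 3.59. Above 50 kb the closed members held 1.82 and the others 1.49, but without DIP-alpha the members' value was 0.652.

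DIP-alpha, on X, is the receptor of Dpr6 and Dpr10 on particular motor neurons and visual system neurons. Its 10 regions had widths of 128 to 794 bp and all lay in the introns between its 2 annotated TSSs, at chrX:3571649 (upstream) and chrX:3530665. The 583-bp region at chrX:3570662-3571244 lay 405 bp downstream of the upstream TSS, outside the window of 250 bp, and a region of 245 bp (3570244 to 3570488) lay 1161 bp downstream. Both were in an intron of 2216 bp and overlapped the nested gene ppk8. A single intron of 26251 bp held 7 of the others. There, 3 regions of 128, 270 and 270 bp had midpoints 319, 41 and 400 bp from the TSS of the noncoding RNA gene CR34335, and the middle one was at it (3546017 to 3546286, between 3545728 to 3545855 and 3546376 to 3546645). The other 4 in this intron measured 288 bp (3548435 to 3548722), 794 bp (3554828 to 3555621), 220 bp (3555658 to 3555877) and 252 bp (3563926 to 3564177). The region of 252 bp also overlapped ppk8. The last region, 326 bp wide (3535558 to 3535883), lay 4893 bp before the downstream TSS.

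The 4 regions of beat-Ib, on 2L, were among the widest of the set, at 495 bp (15911598 to 15912092), 783 bp (15912204 to 15912986), 871 bp (15913256 to 15914126) and 518 bp (15943052 to 15943569). The first 3 stood close together in the distal part of the gene, 48309 to 50343 bp from its only TSS, and the first and second were at the TSSs of the noncoding RNA genes CR44867 and CR44868. The last lay 18866 bp from the TSS. Of all 17 intronic regions, these 2 and the 1 at CR34335 were at a TSS of another gene, and 14 were at none.

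A stretch of up to 300 bases is printed from 1 intronic region each of DIP-alpha, beat-Ib, beat-VII and the open gene dpr18, again with motif matches in capitals, since they show what the intronic class holds.
DIP-alpha intron, chrX:3535558-3535857, minus strand: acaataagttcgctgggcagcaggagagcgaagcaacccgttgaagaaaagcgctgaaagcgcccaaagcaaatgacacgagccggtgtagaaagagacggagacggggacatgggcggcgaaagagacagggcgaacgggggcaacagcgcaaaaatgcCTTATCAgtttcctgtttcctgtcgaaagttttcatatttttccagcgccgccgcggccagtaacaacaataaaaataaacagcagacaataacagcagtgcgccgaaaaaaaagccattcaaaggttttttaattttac
beat-Ib intron, chr2L:15913375-15913674, minus strand: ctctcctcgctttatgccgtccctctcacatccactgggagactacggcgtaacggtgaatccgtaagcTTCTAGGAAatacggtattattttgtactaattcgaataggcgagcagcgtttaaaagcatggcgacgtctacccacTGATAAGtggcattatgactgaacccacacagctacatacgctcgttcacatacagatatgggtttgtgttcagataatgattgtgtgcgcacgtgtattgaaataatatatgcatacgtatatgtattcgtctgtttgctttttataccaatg
beat-VII intron, chr3R:26655535-26655715, minus strand: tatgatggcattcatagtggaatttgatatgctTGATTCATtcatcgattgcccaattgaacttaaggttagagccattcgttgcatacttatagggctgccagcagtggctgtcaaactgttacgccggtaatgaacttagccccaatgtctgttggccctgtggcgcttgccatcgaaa
dpr18 intron, chrX:16068405-16068652, plus strand: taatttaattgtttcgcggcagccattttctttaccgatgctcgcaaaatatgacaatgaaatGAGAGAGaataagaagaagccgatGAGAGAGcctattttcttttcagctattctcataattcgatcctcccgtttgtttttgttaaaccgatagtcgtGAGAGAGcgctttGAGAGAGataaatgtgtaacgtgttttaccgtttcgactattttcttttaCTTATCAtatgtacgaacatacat

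The GATA letters, read as TGATAAG or CTTATCA, stand in the first, second and last of these sequences, and a STAT match (TTCTAGGAA) stands in the second. The hemocyte regulator Serpent binds GATA letters. They were in 3 of the 17 intronic regions of closed members (17.6%), 1 of DIP-alpha and 2 of beat-Ib, compared with none of the 11 TSS regions and 10.5% of intronic regions of other closed genes. The GAGA letters were in 4 of 17 (23.5%, other closed genes 13.3%) and the E-box letters in 4 of 17 (23.5% against 14.3%). The Exd-Hox letters, as in the beat-VII sequence, were in 2 of 17 (11.8% against 7.68%). The M1BP motif was in 1 (5.88% against 2.09%), the DIP-alpha region nearest to the upstream TSS, which lay almost wholly in exons of another gene. The STAT letters were in 1 (5.88% against 6.98%). No intronic region of a closed member held the DRE, AP-1, Runx or homeodomain letters, which were in 1.57%, 7.85%, 6.28% and 11% of intronic regions of other closed genes. Wider regions have more room for a match. In 200 bp around the midpoint of the intronic regions, the E-box letters were in 1 of 17, or 5.88% against 10.8%, the reverse direction. The M1BP and STAT comparisons also changed direction there (0% against 1.75%, and 5.88% against 4.89%). The GATA, GAGA and Exd-Hox letters kept theirs (11.8% against 7.16%, 17.6% against 10.6% and 11.8% against 4.36%). With 11 and 17 regions, these counts differ by a few regions only.

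The remaining closed genes with intronic regions held 1 each. In dpr12, whose protein pairs with DIP-delta in the mushroom body, it was 389 bp wide and 45243 bp from the TSS (2R 5849955 to 5850343). In dpr13 it was 190 bp wide and 5033 bp from the nearest TSS (2R 18002519 to 18002708). In beat-VII it was 181 bp wide and 26251 bp from the TSS (3R 26655535 to 26655715).

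In width, the intronic regions of closed members (median 288 bp, 128 to 871 bp) and the TSS regions (median 279 bp) were alike at the median, but the 6 widest of the combined set were intronic. The intronic regions of other closed genes had a median of 256 bp. The 6 intronic regions of open members, in dpr1, dpr6, dpr18 and beat-IIIc, measured 140 to 585 bp (median 264 bp). The median of 288 bp rested on DIP-alpha, without which it was 495 bp. The GC content was 45.2% at the median in TSS regions and 41.7% in intronic regions of closed members, compared with 43.8% in each corresponding class of other genes.

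**Figure D3:**
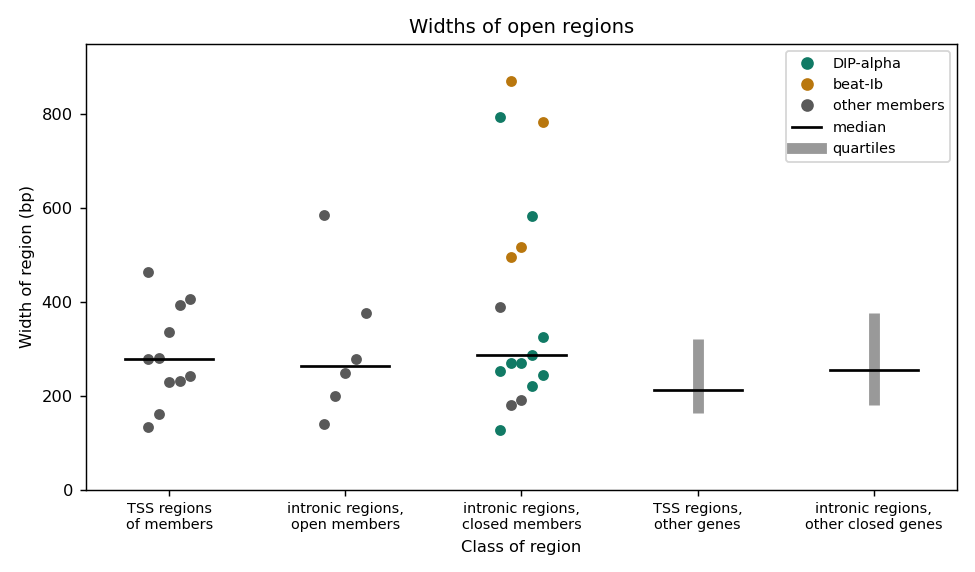
Width in bp of each open region at members' TSSs, in introns of open members and in introns of closed members (points, with DIP-alpha in green and beat-Ib in orange), beside the medians (black lines) and quartiles (grey bars) of regions of other genes. The medians of the 3 member classes lie between 264 and 288 bp, and the 3 widest regions, of 783 to 871 bp, belong to DIP-alpha and beat-Ib.

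In DIP-beta and DIP-kappa the only regions were at the far end of the gene. DIP-beta had 1 of 329 bp in its 3′ UTR and 1 of 304 bp across the gene end, 35175 and 35611 bp from the TSS. DIP-kappa had 2 in its coding sequence, 126 and 377 bp wide, 38575 and 38132 bp from the TSS.

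The 29 genes without any region were 13 Dpr, 7 DIP and 9 Beat genes. The Dpr genes were dpr2, dpr3, dpr4, dpr5, dpr7, dpr9, dpr10, dpr11, dpr15, dpr17, dpr19, dpr20 and dpr21. The DIP genes were DIP-gamma, DIP-delta, DIP-zeta, DIP-eta, DIP-theta, DIP-iota and DIP-lambda. The Beat genes were beat-Ic, beat-IIa, beat-IIb, beat-IIIa, beat-IIIb, beat-IV, beat-Va, beat-Vc and beat-VI. Their lengths ran from 3.7 kb (dpr19) to 379.1 kb (DIP-lambda). The authors kept reads with a single alignment, so sequence with near-identical copies could not be called. At 50 bases every member's TSS windows were 100% unique, but only 47.7% of DIP-lambda was, and 72.7 to 86.4% of beat-Vb, dpr2, beat-IIIa, dpr3 and dpr21.

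The start sites lay far from open chromatin. From the nearest of a gene's TSSs to the nearest region the median distance was 13.0 kb for the 46 genes, compared with 0.452 kb for all protein-coding genes. It was 4.08 kb for Dpr, 14.8 kb for Beat and 35.2 kb for DIP genes. The largest values were those of DIP-lambda (544 kb), dpr21 (209 kb) and beat-IIb (95.9 kb). Just inside the limit of 250 bp were beat-Vb at 150 bp and beat-Ia at 68 bp, with dpr14 between them, and just outside it were dpr19 at 297 bp and DIP-alpha at 405 bp. The upstream TSS of dpr21 sat in a stretch of 527 kb without a region, and those of beat-IIa and beat-IIb in 1 stretch of 226 kb.

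**Figure D4:**
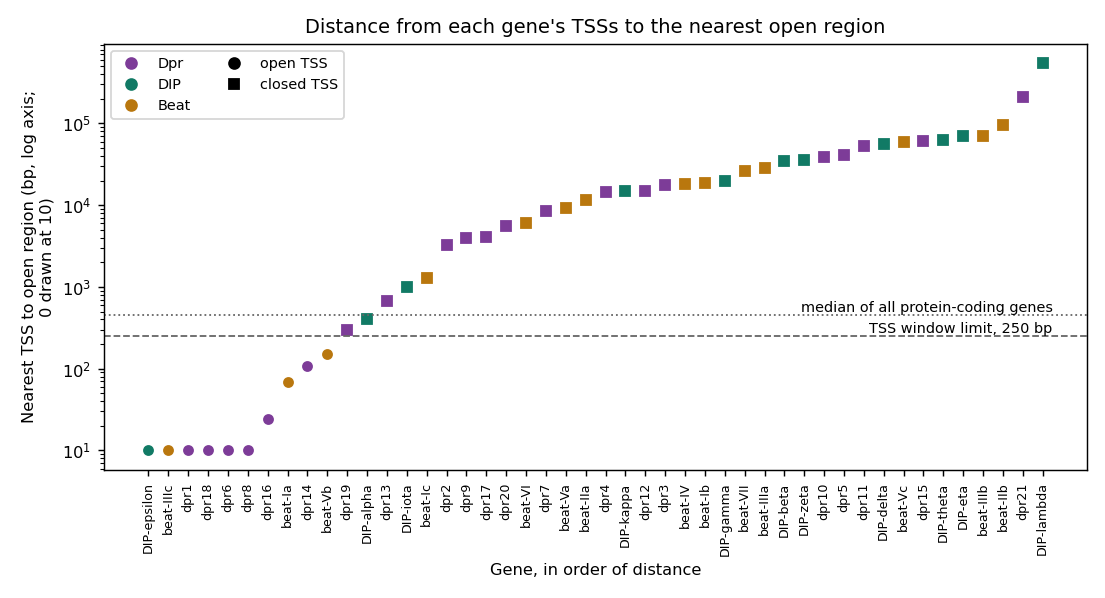
Distance in bp on a log axis from the nearest TSS of each of the 46 genes to the nearest open region, in order of distance, with 0 drawn at 10 bp. Circles are open and squares closed TSSs, colours mark the families, and lines mark the window of 250 bp and the median of all protein-coding genes (452 bp). Only 12 of the 46 genes lie below that median.

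Several neighbouring members shared long stretches without a region. No region lay between the outer ends of beat-IIa and beat-IIb (134 kb on 3R), of dpr15 and dpr17 (63.7 kb on 3R), of DIP-eta and DIP-theta (56.8 kb on 2L) or of dpr4 and dpr5 (43 kb on 3R). The 3 beat-I genes on 2L spanned 177 kb with 7 regions, of which 4 were those of beat-Ib, and the 3 beat-III genes spanned 288 kb with 3 regions. The 3 beat-V genes spanned 189 kb with 2 regions. The span of dpr6 and dpr10 on 3L, both partners of DIP-alpha, was 211 kb with the 3 regions of dpr6 only. Per 100 kb, the beat-I, beat-III, beat-V and dpr6 to dpr10 spans held 3.96, 1.04, 1.06 and 1.42 regions, compared with 11.7 over the chromosome arms. The protein-coding gene whose TSS was nearest to that of a member was open for 14 of 46 members (30.4%), compared with 51% around all protein-coding genes. Around open members it was 3 of 10, against 72.8% around open genes, and around closed members 11 of 36 (30.6%), against 31.1% around closed genes. That nearest TSS also lay farther away, at a median of 4.92 kb for open members against 0.575 kb for open genes. For closed members and closed genes the medians were 6.26 and 1.95 kb. Whether this spacing bears on the shares was not tested.

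Some binding partners with an established pairing were set side by side, without a count over all pairs. Of the DIP-alpha partners, dpr6 was open and dpr10 had no region, while DIP-alpha itself was closed with 10 intronic regions. DIP-gamma, which binds Dpr11, Dpr15, Dpr16 and Dpr17 and pairs R7 photoreceptors with their targets, had no region, and of its partners dpr16 was open and dpr11, dpr15 and dpr17 were closed. DIP-delta and its partner dpr12 were both closed, and dpr12 had 1 region in an intron.

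The Side genes, which encode the partners of the Beat proteins, had an open TSS in 3 of 8 cases (37.5%). Each has 1 annotated TSS and their median length is 58.5 kb. Above 50 kb, 68.1% of all protein-coding genes, and 46.6% of those with 1 TSS, were open. However, side-IV (13.6 kb), side-V (41.0 kb) and side-VII (6.0 kb) are shorter, so those shares are only a rough background. The open genes were side-IV (region of 373 bp), side-V (254 bp) and side-VIII (348 bp), and none of the 3 had a region in an intron. The genes side, side-II and side-III were closed with 1, 2 and 1 intronic regions, and side-VI and side-VII had no region. Thus beat-Ia was open and its partner side closed, whereas side-IV was open and beat-IIa and beat-IIb, whose proteins bind Side-IV, had no region. Neither side-II nor beat-VI, its partner, was open, and of the beat-V genes, partners of the closed side-VI, only beat-Vb was.

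Of 57 other neural adhesion and guidance genes with a matched symbol, 43 had an open TSS (75.4%), close to the 68.2% of all protein-coding genes of 10 to 50 kb and the 68.1% of those above 50 kb. The widest TSS regions were those of PlexB, a semaphorin receptor gene (872 bp), kek5 (847 bp) and sns, which encodes a myoblast fusion receptor (792 bp). The 14 closed genes include bdl, CadN2 and cDIP, and 12 of the 14 had no region at all. The list had a median length of 40.4 kb, compared with 33.2 kb for the Dpr, DIP and Beat genes, and its genes were chosen with earlier results known, so these counts are a description.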

How the data were processed

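ATAC-seq of basal Kc167 cells gave 3 libraries. The deposited file holds 1 list of region positions (start and end, a unit other than a signal) without scores or counts. According to the submitters' processing notes and the study's methods, the authors used Bowtie 1.2.2 for alignment to dm6, kept single alignments, offset reads by 4 and 5 bp to the centre of the transposase contact, called regions per replicate with MACS2 2.1.1.20160309 at a q threshold of 0.01, and kept those open in at least 2 of 3. The offset suits ATAC-seq. Weak or repeated sequence would be missed.

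Regions were compared with Ensembl release 115 genes (BDGP6, version 54) in Python 3.11.15 scripts, tested on simulated data with planted regions. The sequence is RefSeq's Release 6. A region was intronic when its midpoint lay in an intron and it overlapped no TSS window of the gene. Positions are counted from 1. A region shared by genes counted for each in counts of genes and of gene and region pairs. It counted once in each set of regions used for widths, GC content and motif shares. All 46 genes are accounted for. The open genes, those with intronic regions, those without any and the Side genes were named in full, and for other lists up to 6 examples (the widest TSS regions, and closed genes first in the alphabet). Members and lists were chosen with earlier results of these data known. The symbols Nrm and Toll-8 were not matched. Alternatives were other TSS windows, a minimum width of 200 bp, an overlap of 50 bp and the most upstream TSS. Others were members with unique TSS windows, whole regions inside introns, regions away from any TSS and motifs near the midpoint. Leaving out DIP-alpha and counting genes with 1 TSS were added after seeing the data.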

Additional observations from a re-analysis of the deposited data

How the results depend on the processing

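The count of open members (10) stayed between 8 (window of 100 bp) and 12 (window of 500 bp) under the 6 alternatives tried, beside 47.8% of all genes in the main count and 45% and 50.4% in these. With regions of at least 200 bp it was 9, and the share of all genes was 30.9%, which narrows the distance to the background. With the same minimum width, members with a region in the gene body went from 13 to 11. The share of all genes there went from 48.9% to 32.7%. Another alternative for open members, the limit to unique TSS windows, left out no gene, so its count could not change. The 17 intronic regions of closed members became 7 with a window of 500 bp, in which DIP-alpha counts as open, 8 when regions within 1000 bp of any TSS were left out, and 7 without DIP-alpha. The 5 closed members with an intronic region became 3 with regions of at least 200 bp. The median width of TSS regions, 0.969 times that of intronic regions of closed members, was 0.564 times without DIP-alpha. The TSS regions with any of the 10 motifs were 7, and 4 when motifs were counted in 200 bp around the midpoint. The other 21 of 27 alternatives, the limit to unique TSS windows included, stayed within 1.5 times the main value. No paired analysis was possible because the file pools the replicates, and for the same reason no replicate could be left out. The list gives no read numbers, so weak accessibility below the authors' threshold is not detectable.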

Other observations

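The members hold 86 nested genes, of which 35 are protein-coding, and 3 of the 86 had an open TSS. These 3 were the noncoding RNA genes CR34335 in DIP-alpha and CR44867 and CR44868 in beat-Ib. The share of open TSSs among nested or noncoding genes elsewhere was not computed, so the count has no background.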
